A study of Homo sapiens with 4 samples.

Results

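The miR-181 family of microRNAs (miRNAs) was followed in small RNA libraries of a human cell line in which RNA polymerase II (Pol II) carried either a wild-type or a mutated C-terminal domain (CTD). The family consists of 6 precursor genes, found by symbol from the Ensembl identifiers of the deposited tables, among 7062 listed features of which 1860 were miRNA genes. There were 2 libraries of 52X T4A, in which threonine at position 4 of the CTD heptads is replaced by alanine, and 2 of 52X WT, which the submitters describe as biological replicates. The cells were HEK293T, derived from human embryonic kidney, although the cell line field of the labels reads HEK293. They were transiently transfected with 1.5 µg of plasmid per well, so expression of the construct was not that of a stable clone, and both groups were selected for 72 h with α-amanitin, a toxin that blocks Pol II, at 2.5 µg/ml. The labels state that cells without a plasmid die within this time, and how much endogenous Pol II or earlier RNA remained was not measured. No library without transfection or without α-amanitin was analysed here, so every value compares mutant with wild-type construct under the same drug.

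MiRNAs are cut from longer Pol II transcripts. The nuclear enzyme Drosha releases a hairpin, Dicer trims it to a duplex, and a strand of the duplex guides Argonaute to messenger RNAs that pair with its seed, the short stretch near the 5′ end. The miR-181 family is best known for its part in lymphocyte development, where miR-181a sets the sensitivity of T cell receptor signalling, but it is made in many tissues. Its genes sit as pairs, each pair cut from a shared transcript, and the copies at different places in the genome arose by duplication.

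The 6 genes lie in 3 pairs. On chromosome 1, MIR181B1 (ENSG00000207975.1, 198858873 to 198858982) and MIR181A1 (ENSG00000207759.1, 198859044 to 198859153) are on the minus strand, 61 bases apart. On chromosome 9, MIR181A2 (ENSG00000207595.1, 124692442 to 124692551) and MIR181B2 (ENSG00000207737.1, 124693710 to 124693798) are on the plus strand, 1158 bases apart. On chromosome 19, MIR181C (ENSG00000207613.1, 13874699 to 13874808) and MIR181D (ENSG00000207585.1, 13874875 to 13875011) are on the plus strand, 66 bases apart. These are the coordinates of the tables, read as hg38, and all 6 equal the RefSeq positions in GRCh38.p14. In GENCODE v44lift37 the chromosome 1 pair falls in an intron of the long noncoding RNA gene MIR181A1HG. The chromosome 9 pair falls in an intron of the long noncoding RNA gene MIR181A2HG, opposite to an intron of NR6A1, which encodes an orphan nuclear receptor. The chromosome 19 pair falls in an intron annotated to NANOS3, a germ cell gene, on the same strand.

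The 4 mature sequences of the 5p arm are shown because they decide which reads can be told apart. They are from RefSeq (GRCh38.p14), where all 6 genes were matched, and the seed (bases 2 to 8) is in capitals.
miR-181a-5p, made by MIR181A1 and MIR181A2: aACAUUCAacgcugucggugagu
miR-181b-5p, made by MIR181B1 and MIR181B2: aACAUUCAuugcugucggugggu
miR-181c-5p, made by MIR181C: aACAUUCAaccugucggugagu
miR-181d-5p, made by MIR181D: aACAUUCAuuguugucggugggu

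All 4 share the seed ACAUUCA, and with it the main determinant of the messenger RNAs they recognise. With positions counted from 1 at the 5′ end, miR-181b-5p and miR-181d-5p differ only by C12U. The change from miR-181a-5p to miR-181b-5p takes A9U, C10U and A21G. The sequence of miR-181c-5p is 22 bases long against 23 for the others, and is 1 edit away from miR-181a-5p. Of 2370 mature names in the RefSeq table, a single other one has the seed, miR-4262, whose gene MIR4262 had 0 counts in each of the 4 libraries. The 3p arms are shown for the miR-181a genes alone, because they are what separates these 2 loci.
miR-181a-3p, made by MIR181A1: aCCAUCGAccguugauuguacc
miR-181a-2-3p, made by MIR181A2: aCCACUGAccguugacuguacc

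These differ by U5C, C6U and U16C, so a read of a 3p arm can be placed at 1 of the loci, whereas a read of miR-181a-5p matches both equally well.

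The counts assigned to features ranged from 16180790 to 27370127 per library, and the 6 loci held between 0.255% and 0.29% of them, or between 0.148% and 0.169% with 1 locus counted per 5p sequence. The line was checked against miRNAs typical of it. The 8 chosen for HEK293 cells include MIR10A and MIR10B, which are hosted in HOX gene clusters, and none was at 0. They summed to 207791 and 229549 CPM (counts scaled to a common library size, with TMM factors) in 52X T4A. In 52X WT they summed to 263917 and 237486 CPM, so the mutant sums were lower without overlap, as were 21.2% of all features tested. Of these 8 genes, 6 had estimates below 0 and 0 were called. An unadjusted p below 0.05 in edgeR was reached by 2 of them, against 152 of all 1480 features. The 2 of liver summed to between 0.348 and 0.948 CPM. The 5 of blood summed to 2.53 and 2.53 CPM in 52X T4A against 0.822 and 1.75 CPM in 52X WT, which was higher in the mutant but on few counts. Both tested genes had estimates above 0 and were not called. One of them, MIR150, had 16 and 42 counts in 52X T4A against 3 and 9 in 52X WT. MIR223, which was not tested, had 2 counts in each library. The 6 of muscle, led by MIR1-1 and MIR1-2, summed to 96.7 and 81.6 CPM in 52X T4A but 30.5 and 33.1 CPM in 52X WT. Of the 4 muscle genes tested, edgeR's quasi-likelihood test called 0 (smallest adjusted p by Benjamini-Hochberg 0.186), although all 4 had an unadjusted p below 0.05 and DESeq2 called 2. Over all 1480 features, 152 had an unadjusted p below 0.05 in edgeR and DESeq2 called 29. MIR1-1 and MIR1-2 held nearly equal counts, such as 738 and 740 in 52X T4A replicate 1, and so did MIR133A1 and MIR133A2. The 4 genes therefore do not count as separate cases. The part of the muscle miRNAs in the values that follow was not tested.

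Loci of the same 5p sequence held nearly the same counts. MIR181B1 and MIR181B2 had 7992 and 7985 counts in 52X T4A replicate 1, and 11964 and 11937 in replicate 2. In 52X WT they had 7056 and 7075 in replicate 1, and 9950 and 9975 in replicate 2. The difference never exceeded 27 counts, while a random split of shared reads between the loci would give the difference a standard deviation of 119 to 155 counts. How reads that match several loci were counted is not given in the sources used here. MIR181B1 and MIR181B2 are therefore not independent measurements, and a sum over both may count a read more than once.

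MIR181A1 and MIR181A2 were close but not equal. MIR181A1 exceeded MIR181A2 by 201 counts in 52X T4A replicate 1 and 943 in replicate 2, and by 915 and 721 counts in the 52X WT replicates. The excess was 2.05% and 4.94% of the MIR181A1 counts in 52X T4A, and 8.2% and 5.18% in 52X WT. Reads of the hairpin outside the shared 5p sequence, such as those of the 3p arm, are where these loci could differ, but the tables do not give the arms apart. With TMM scaling, the mutant libraries had an excess of 21.3 ± 12.1 CPM and the wild-type libraries one of 50.5 ± 17.3 CPM (SD, n = 2, as for every mean ± SD given). The groups did not overlap, and an exact two-sided permutation test gave p = 0.333, the smallest value that 2 libraries against 2 allow.

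The closeness extended to sequences that differ by a single base. Genes were compared if they had a mean of at least 1000 counts, a unique symbol and a mature sequence under that symbol in RefSeq. Sequences were compared within the same arm and only at equal length. Among 160 such miRNA genes, 27 pairs had an identical mature sequence, with a median size of the log2 ratio of counts of 0.01. For 25 pairs that differ by 1 substitution the median was 0.29, and 18 of them lay within 2-fold. It was 2.19 for 20 pairs with 2 substitutions and 2.44 for all 12720 pairs. The abundant MIR10A and MIR10B were in none of the pairs with at most 2 substitutions, so these medians do not cover every abundant gene. MIR181D stood at 0.31 from either MIR181B locus, with an SD of that log2 ratio of 0.03 over the 4 libraries, where the median SD over all pairs was 0.33. Whether reads of miR-181b-5p were counted at MIR181D was not tested, so its level is uncertain. These pairs share genes and are a description without a test. MIR181C had too few counts to enter the comparison. Its pair with MIR181A1 would have been left out at any count. Their 5p sequences are 1 edit apart but have 22 and 23 bases, and their 3p sequences differ by 17 substitutions. The ratio of MIR181C to MIR181A1 ran from 0.0185 to 0.0246 over the 4 libraries. Whether reads of miR-181a-5p were counted at MIR181C was not tested either.

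**Figure D1:**
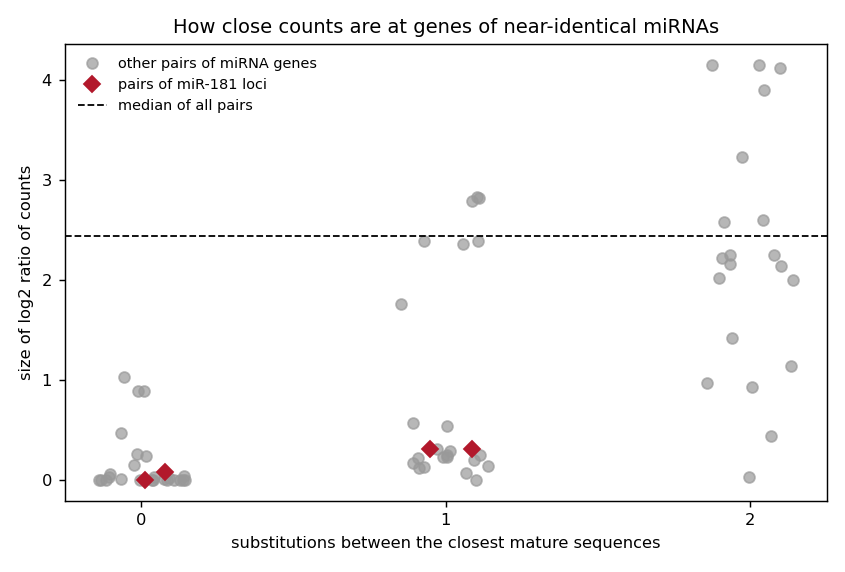
Each point is a pair of miRNA genes with a mean of at least 1000 counts, a unique symbol and a RefSeq mature sequence. The x axis gives the substitutions between their closest mature sequences of equal length (points spread sideways for visibility). The y axis gives the size of their mean log2 ratio of counts over the 4 libraries. The MIR181D pairs, at 1 substitution and 0.31, sit with most pairs of that kind and far below the median of all pairs (dashed line, 2.44).

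Levels between genes were compared per length, as CPM per 100 bases of the listed hairpin. MIR181A1 was at 557 ± 10.1 with the mutant and 684 ± 16.1 with the wild type, and MIR181A2 at 538 ± 21.2 and 638 ± 0.381. MIR181B2 followed with 496 ± 100.4 and 570.1 ± 35.8, then MIR181B1 with 402 ± 81 and 460.04 ± 28.9. The gap between the MIR181B loci comes from their listed lengths of 89 and 110 bases, since their counts were nearly equal. MIR181D was at 263 ± 56.6 and 296 ± 28.2 CPM per 100 bases. MIR181C was far below the others on this scale, at 12 ± 2.16 and 14 ± 1.93, which placed MIR181D 21.5-fold above its neighbour in the same pair. That fold depends on the listed lengths of these genes. Without division by length, MIR181D was at a mean of 360 CPM with the mutant and 406 CPM with the wild type. MIR181C was then at 13.2 and 15.4 CPM.

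Over the 4 libraries, the ranges of MIR181A1 and MIR181A2, of MIR181A2 and MIR181B2, and of MIR181B2 and MIR181B1 overlapped on that scale. In CPM without division by length, MIR181A2 ran from 575 to 702 and MIR181B2 from 378 to 530, which did not overlap. The range of MIR181D, from 223 to 316 CPM per 100 bases, lay wholly below that of MIR181B1, from 344 to 480. This separation depended on the listed lengths of 137 and 110 bases. In CPM without division by length, MIR181D ran from 305 to 433 and MIR181B1 from 379 to 529, which overlapped. Per 100 bases, the range of MIR181C, from 10.5 to 15.4, lay wholly below that of MIR181D. Among the 619 miRNA genes tested, MIR181A1 ranked 75 per length, MIR181D ranked 100 and MIR181C ranked 251.

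**Figure D2:**
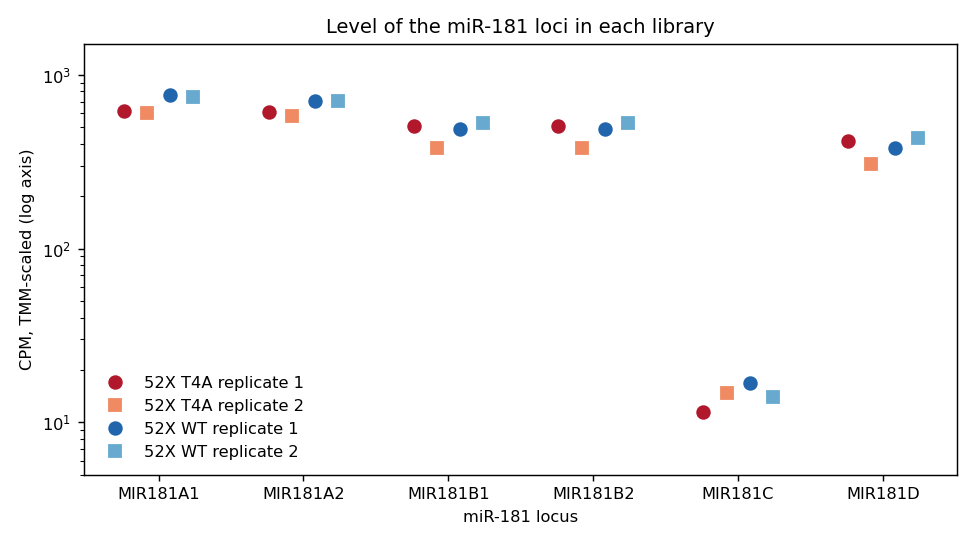
Level of each miR-181 locus in each of the 4 libraries, in CPM with TMM scaling on a log axis, red for 52X T4A and blue for 52X WT. The libraries of the groups separate for MIR181A1 and MIR181A2, overlap for the other 4 loci, and MIR181C lies far below the rest.

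The comparison of 52X T4A with 52X WT asks whether levels differ when the mutated residue cannot be phosphorylated. None of the 6 loci was called. All 6 passed the filter on low counts, and all 6 had a log2 fold change below 0, from −0.3 for MIR181A1 to −0.17 for MIR181D. Adjusted over 1480 features by Benjamini-Hochberg, the members' p-values from the edgeR quasi-likelihood test ran from 0.584 to 0.831. A feature was called at an adjusted p below 0.05 and a fold change above 1.5, which 0.135% of all features met. At an unadjusted p below 0.05 there were 0 of the 6 loci, against 152 of all features, and DESeq2 called 0 of the 6 as well. In these cultures a lower level per cell and fewer cells with the miRNA cannot be told apart.

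The miR-181a loci came nearest to a difference. The counts of MIR181A1 were 9821 and 19093 with the mutant construct, compared with 11158 and 13924 with the wild-type construct. After scaling these were 620 and 605 CPM in 52X T4A, against 765 and 740 CPM in 52X WT. Both mutant libraries were below both wild-type libraries. The log2 fold change was −0.3 with an SE of 0.21 (95% interval −0.77 to 0.18, edgeR's quasi-likelihood test, Benjamini-Hochberg adjusted p = 0.584). MIR181A2 was at 608 and 575 CPM in the mutant libraries, against 702 and 701 CPM in the wild-type libraries, again without overlap. Its log2 fold change was −0.25 with an SE of 0.21, and the adjusted p in the same edgeR test was 0.66. With CPM from library size alone the groups overlapped at both loci. On that scale MIR181A1 was at 607 and 698 CPM with the mutant, the higher of which lay between the wild-type values of 689 and 727 CPM.

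These 2 loci were the only ones of the 6 whose groups did not overlap, and 21.2% of all features tested were lower in 52X T4A without overlap. They share reads, so they do not count as 2 separate cases. Summed over both loci, the level was 1228 and 1179 CPM with the mutant and 1466 and 1442 CPM with the wild type. By library size alone these were 1201 and 1361 CPM against 1321 and 1416 CPM, which overlapped. The log2 fold change of the sum was −0.27 with an SE of 0.2, and edgeR did not call it (adjusted p = 0.591 by Benjamini-Hochberg).

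For miR-181b the libraries of the groups overlapped. MIR181B1 stood at 505 and 379 CPM with the mutant, compared with 484 and 529 CPM with the wild type. Replicate 1 of 52X T4A lay between the wild-type libraries and replicate 2 lay below both. The log2 fold change was −0.2 with an SE of 0.24 (95% interval −0.73 to 0.34, edgeR adjusted p = 0.782 by Benjamini-Hochberg). MIR181B2 gave the same picture, at 504 and 378 CPM against 485 and 530 CPM. The sum of both loci changed by −0.2 on the log2 scale with an SE of 0.23.

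MIR181D followed the same order of libraries, with 415 and 305 CPM against 379 and 433 CPM. The highest and lowest wild-type values enclosed replicate 1 of 52X T4A, and replicate 2 was the lowest library. Its log2 fold change was −0.17 with an SE of 0.25. MIR181C had only 182 and 469 counts with the mutant against 247 and 262 with the wild type, or 11.5 and 14.9 CPM against 16.9 and 13.9 CPM. Here replicate 1 of 52X T4A was the lowest library and replicate 1 of 52X WT the highest. At 182 counts, counting error alone is 7.41%, and the log2 fold change of MIR181C was −0.22 with an SE of 0.33 (95% interval −0.96 to 0.52).

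**Figure D3:**
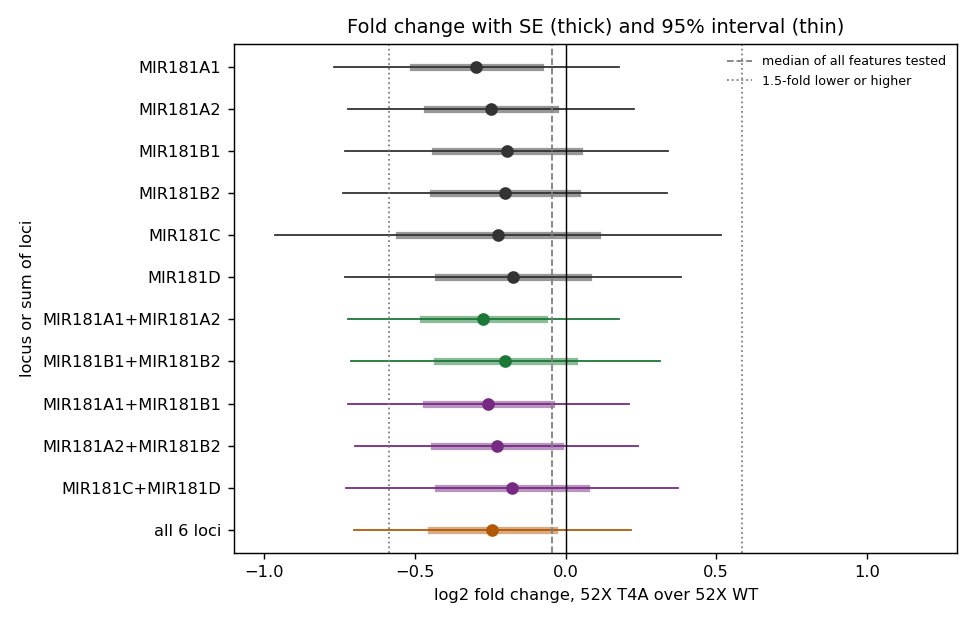
Log2 fold change of 52X T4A over 52X WT (x axis) for each miR-181 locus and for sums of loci (y axis), with thick bars for the SE and thin bars for the 95% interval from the edgeR fit. All estimates lie between −0.3 and −0.17, and every interval contains 0.

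By gene pair, the chromosome 1 loci MIR181A1 and MIR181B1 summed to 1125 and 983 CPM with the mutant, against 1248 and 1269 CPM with the wild type. The chromosome 9 loci MIR181A2 and MIR181B2 summed to 1112 and 953 CPM against 1186 and 1232 CPM. The mutant libraries were below the wild-type ones in both pairs with TMM scaling, with log2 fold changes of −0.26 (SE 0.21) and −0.23 (SE 0.21). Of all features tested, 21.2% were lower in 52X T4A without overlap, and these pairs share reads, so they are not separate cases. By library size alone the groups overlapped in both, at 1101 and 1135 CPM against 1125 and 1246 CPM on chromosome 1, and at 1088 and 1099 CPM against 1069 and 1210 CPM on chromosome 9. The chromosome 19 loci MIR181C and MIR181D summed with TMM scaling to 426 and 320 CPM against 395 and 448 CPM, which overlapped, with a log2 fold change of −0.18 (SE 0.25). None of the 3 sums was called, at Benjamini-Hochberg adjusted p-values of 0.635, 0.679 and 0.82 in edgeR.

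The 6 loci together, which share the seed, held 2661 and 2242 CPM with the mutant, against 2837 and 2962 CPM with the wild type. Both mutant libraries were below both wild-type libraries with TMM scaling, as for 21.2% of all features tested. The gap between the mutant libraries was larger than that between replicate 1 of each group. By library size alone the groups overlapped, at 2606 and 2603 CPM with the mutant against 2550 and 2895 CPM with the wild type, whose replicate 1 was then the lowest library. The fold change was 0.845 (95% interval 0.615 to 1.16), a log2 change of −0.24 with an SE of 0.21 (edgeR, Benjamini-Hochberg adjusted p = 0.655). The interval thus covers a decrease to 0.615 of the wild-type level and an increase to 1.16 times that level. Taking 1 locus per 5p sequence, a choice made after seeing the data, gave −0.24 with an SE of 0.21 as well. The median log2 fold change of the 6 loci was −0.21, beside −0.02 over the 619 miRNA genes tested and −0.05 over all 1480 features. Of those miRNA genes 51.9% were below 0.

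The choice of scaling moved all features together. The median over all features ran from −0.05 to 0.14 on the log2 scale across 10 alternatives, and it was 0.14 with library size alone. Relative to that median, the members' median lay between −0.2 and −0.17 under all 10. The 6 loci kept estimates below 0 in each, with MIR181D at −0.02 at the least. Leaving out replicate 2 of 52X T4A moved the loci unequally. Without it MIR181B1, MIR181B2 and MIR181D had log2 fold changes of 0.01, 0.01 and 0.05, MIR181A1 stayed at −0.26 and MIR181C moved away from 0 to −0.41, with a median of −0.09 over the 6 loci. MIR181C was at −0.07 without replicate 1 of 52X T4A. Without replicate 1 of 52X T4A the median of the 6 loci was −0.38, and without replicate 1 of 52X WT it was −0.37.

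**Figure D4:**
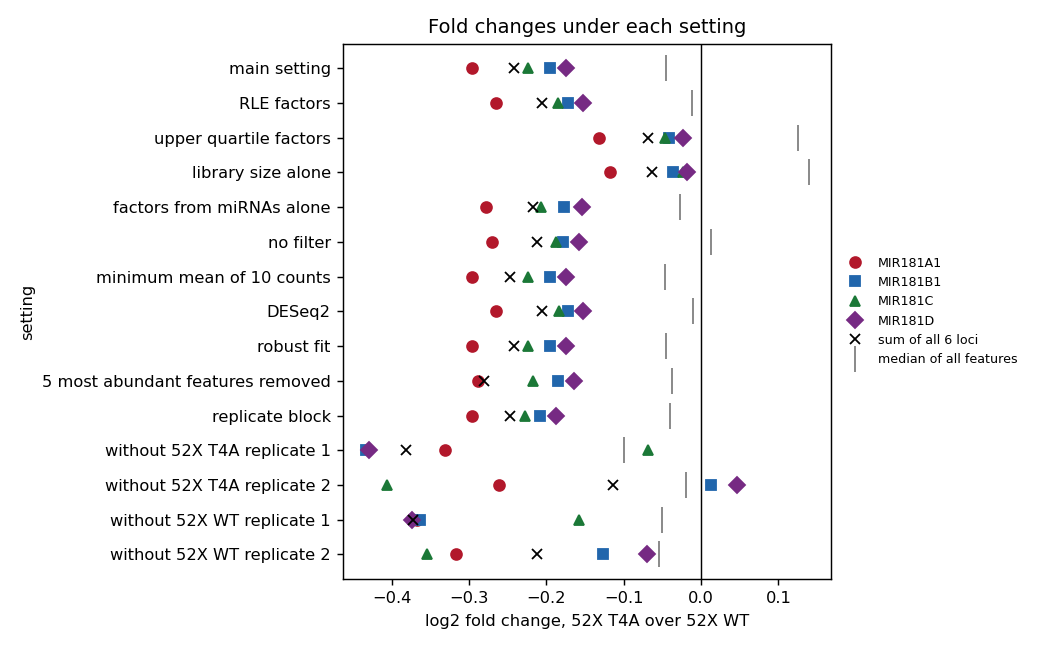
Log2 fold change of 52X T4A over 52X WT (x axis) for MIR181A1, MIR181B1, MIR181C, MIR181D and the sum of all 6 loci under each setting of the processing (y axis), with the median of all features as a grey bar. Estimates stay below 0 except for MIR181B1 and MIR181D without 52X T4A replicate 2, where the highest is 0.05.

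Ratios of loci within a library do not depend on scaling. The ratio of MIR181A1 to MIR181B1 was 1.23 and 1.6 with the mutant and 1.58 and 1.4 with the wild type. The spread between the mutant replicates was wider than the whole wild-type range, and the groups overlapped (exact permutation test, two-sided, p = 1). The ratio of MIR181C to MIR181D, whose genes are neighbours on chromosome 19, was 0.0277 and 0.0487 for the mutant and 0.0447 and 0.0321 for the wild type. It varied 1.76-fold over the libraries, again with overlap between groups. The ratio of MIR181D to MIR181B1, whose genes lie on different chromosomes but whose 5p sequences differ by a single base, varied only 1.05-fold, from 0.783 to 0.821.

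The ratio of MIR181A1 to MIR181A2 was 1.02 and 1.05 for the mutant, compared with 1.09 and 1.05 for the wild type. It was lower in 52X T4A without overlap before rounding. The groups of the ratio of MIR181B1 to MIR181B2 did not overlap either, but its 4 values lay between 0.997 and 1.002, with differences in counts below the random-split values given above. For 8 quantities compared in this way, the smallest exact permutation p was 0.333, the least the design allows, and the smallest value after Benjamini-Hochberg adjustment was 0.889. Of 7 ratios, 5 changed direction between groups when some library was left out, those of MIR181A1 to MIR181A2 and MIR181B1 to MIR181B2 being the exceptions.

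**Figure D5:**
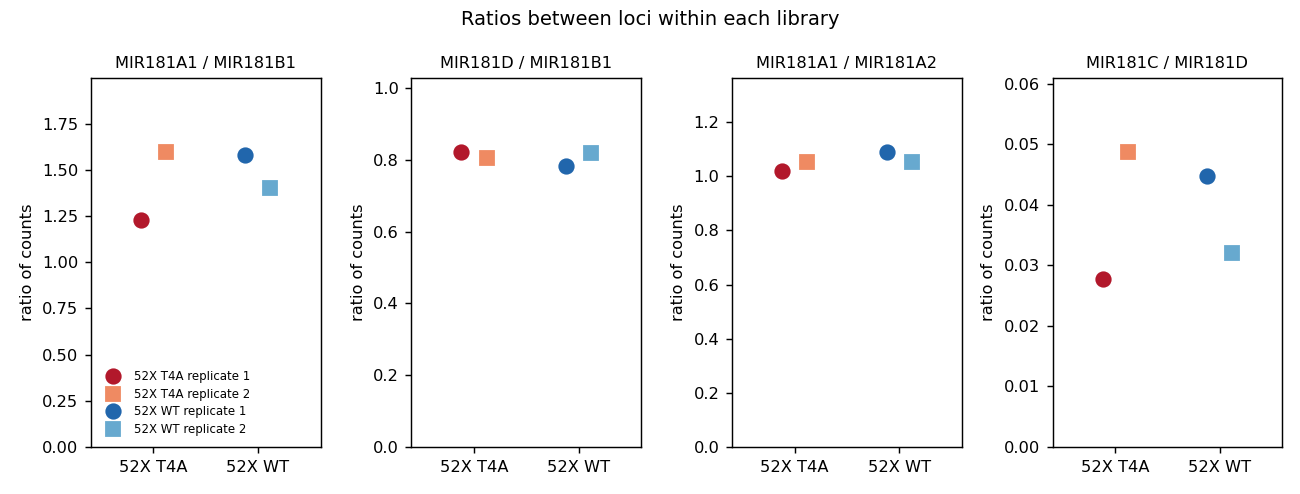
Ratios of counts between miR-181 loci within each library (y axes, from 0), for 52X T4A and 52X WT (x axis), 1 point per library. The ratio of MIR181C to MIR181D ranges from 0.0277 to 0.0487 with both groups mixed, while that of MIR181D to MIR181B1 stays between 0.783 and 0.821.

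Other miRNAs that act in lymphocyte development or T cell signalling were set beside the family. Of 15 listed, 14 were tested and 0 were called by edgeR or by DESeq2. In edgeR 5 had an unadjusted p below 0.05, against 152 of all 1480 features. Several of the listed genes lie in the MIR17 cluster, so they do not count as separate cases. Of these, MIR17, MIR20A and MIR92A1 were also among the HEK293 markers above. Over the 14 tested, the median log2 fold change was −0.48, with 11 below 0. MIR21, an abundant miRNA that is raised in activated T cells and tumours, changed by −0.57 (SE 0.19), and MIR19A of the MIR17 cluster, which promotes lymphocyte growth, by −0.85 (SE 0.31). MIR150, which restrains MYB in lymphocytes, stood at 1.73 (SE 0.56) on at most 42 counts. The smallest p in edgeR after Benjamini-Hochberg adjustment was 0.348.

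The MIR30 family, another family spread over several gene pairs, had 6 loci tested, of which 3 were below 0, with a median log2 fold change of −0.1. The 4 loci of the MIR15 and MIR16 family, which limit the cell cycle, were all below 0, with a median of −0.18. MIR16-1 and MIR16-2 have an identical mature sequence, as do MIR30C1 and MIR30C2, so these loci do not count as separate cases. In both families edgeR and DESeq2 called 0 loci and 0 had an unadjusted p below 0.05, and the smallest p after Benjamini-Hochberg adjustment was 0.467 and 0.542 in edgeR. The miR-181 median of −0.21 thus lay beside that of MIR15 and MIR16, and the difference between families was not tested.

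The features whose levels followed the summed miR-181 family most closely were found among 749 with a mean of at least 100 counts. Likeness was the root mean square difference of log2 CPM, centred on each feature's mean over the 4 libraries. The nearest were MIR1287 (0.04), MIR548N (0.04), MIR676 (0.05), MIR30A (0.05) and MIR195 (0.06). With 4 libraries 32 features came within 0.1, so the order among them carries little information.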

How the data were processed

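Small RNA was sequenced as single-end reads of 50 bases from total RNA of 4 cultures. The authors deposited raw counts per feature for each library, without normalization, and the submitters' processing notes name cutadapt 4.6, Bowtie2 2.3.5.1, featureCounts 1.5.0 and hg38. Parameters, the annotation and the treatment of reads matching several loci are not given in the sources used here. Names came from GENCODE v44lift37 by identifier for 5579 of 7062 features, 899 more were named by RefSeq genes at the same position, and 584 kept their identifier.

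Counts were tested with edgeR 4.0.16 (limma 3.58.1, R 4.3.3) by the quasi-likelihood test on all features, with filterByExpr at a minimum count of 10, TMM factors and Benjamini-Hochberg adjustment over 1480 features. A call needed an adjusted p below 0.05 and a fold change above 1.5. The SE is the size of the log2 fold change divided by the square root of F. Sums replaced their loci in the same fit. DESeq2 1.42.0 was an alternative, beside other factors, filters, a replicate block and leaving out each library. The edgeR fit was tested on simulated counts. Library totals ranged from 16180790 to 27370127 counts, and the biological coefficient of variation was 26%, above the counting error of every locus. The counting error given for MIR181C covers counting alone.

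The genes named were all 6 miR-181 loci, the 5 features most like their sum, at most 2 members of each comparison family, and miRNAs from the lymphocyte list. MIR21, MIR19A and MIR150 of that list were chosen after their values were seen. MIR10A, MIR10B, MIR1-1, MIR1-2, MIR17, MIR20A, MIR92A1, MIR150 and MIR223 are named as markers and MIR4262 for its seed. The members and lists were chosen with earlier results of these data known.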

Additional observations from a re-analysis of the deposited data

How the results depend on the processing

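None of the 6 miR-181 loci was called under any of the 10 alternatives or when a library was left out, nor at an adjusted p below 0.05 without the fold minimum, nor at 0.1. Across the 10 alternatives, the log2 fold change ran from −0.3 to −0.12 for MIR181A1, −0.25 to −0.07 for MIR181A2, −0.21 to −0.04 for MIR181B1 and MIR181B2, −0.23 to −0.02 for MIR181C, −0.19 to −0.02 for MIR181D and −0.28 to −0.06 for all 6 loci. Without 52X T4A replicate 2, 5 fold changes of loci or sums changed sign: MIR181B1 (0.013), MIR181B2 (0.00799), MIR181D (0.0469), the sum of MIR181B1 and MIR181B2 (0.0104) and the sum of MIR181C and MIR181D (0.0326), and the cause was not tested. Leaving out each library gave −0.43 to 0.01 for MIR181B1, −0.44 to 0.01 for MIR181B2, −0.43 to 0.05 for MIR181D, −0.45 to 0.01 for the MIR181B sum, −0.42 to 0.03 for the MIR181C and MIR181D sum, −0.37 to −0.26 for MIR181A1, −0.34 to −0.19 for MIR181A2, −0.41 to −0.07 for MIR181C and −0.38 to −0.11 for all 6 loci. The ratios within a library, which were not called, changed direction in 5 of 7 cases. Leaving out each library gave log2 differences between groups of −0.28 to 0.1 for MIR181A1 to MIR181B1, −0.2 to 0.13 for MIR181A2 to MIR181B2, −0.47 to 0.34 for MIR181C to MIR181D, −0.01 to 0.05 for MIR181D to MIR181B1 and −0.14 to 0.26 for MIR181C to MIR181A1. Where leaving out a library left a group with 1 library, that library was assumed to vary like the other group.

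With replicate number as a block, the log2 fold change of all 6 loci was −0.25 (edgeR, Benjamini-Hochberg adjusted p = 0.688), and 0 members and 18 features were called, against 2 without the block. No label ties libraries of the same number to each other, and same-numbered libraries deviated together with a correlation of 0.0941 over 755 features. Over all features, calls numbered 2 as reported, 0 with factors from miRNAs alone, 9 with library size alone, 29 without the filter and 29 with DESeq2. Leaving out a library gave 4 to 218 calls, the highest without 52X WT replicate 2.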
